A study of Mus musculus with 12 samples.

Results

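Mouse pancreatic islets of 2 labelled Ptpn2 genotypes were compared after exposure to inflammatory cytokines. The comparison uses 6 of the 12 libraries of the study, 3 of islets labelled bKO and 3 of control islets, all treated with cytokines. Its members are the 19800 genes, of 55536 in the count table, that had enough counts to be tested over the 4 groups of libraries. Islets labelled bKO are titled PTPN2 -/-, and controls are titled PTPN2 +/+ and carry the genotype label fl/fl. All mice were 16 weeks old, on a strain background described as mixed with C57BL/6J. Treated islets were kept for 24 h in RPMI medium with serum, TNF-alpha, IL-1beta and IFN-gamma, at doses that the sources used here do not state. The other 6 libraries, 3 of each genotype, are of islets without cytokines and are given beside the treated ones. The letters bKO are taken to mean a beta cell knockout, and neither the promoter behind the Cre recombinase nor the floxed exon is stated in the sources used here. Islets of each genotype came from 3 mice, so libraries of a genotype share mice in a way the sources do not give, and p-values measure the spread between these libraries.

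Ptpn2 encodes a phosphatase that takes phosphate off tyrosines of Janus kinases and of the STAT factors they activate. It acts as a brake on signals from interferons and other cytokines, and its own transcription is raised by interferon. In islets, IFN-gamma acts mainly through STAT factors and interferon regulatory factors, whereas TNF-alpha and IL-1beta act mainly through NF-kB. Together they are used in culture to mimic the inflammation that beta cells meet in type 1 diabetes.

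The targeted gene was not lower in treated islets labelled bKO. Ptpn2 stood at 88.9, 90.4 and 78.3 CPM in the 3 control libraries and at 111, 84.2 and 107 CPM in those labelled bKO. CPM, the usual unit of a gene's counts scaled to library depth, are taken here on library sizes scaled by TMM, which corrects for a few abundant genes taking a large share of the counts, and they are not corrected for gene length. The groups overlapped, and the log2 fold change was 0.23 (SE 0.097, adjusted p = 0.26, Benjamini-Hochberg adjustment of edgeR's quasi-likelihood test, as for every adjusted p below). The overlap came from replicate 2 of the libraries labelled bKO, at 84.2 CPM. Without that library the log2 fold change was 0.33 and was not called either (adjusted p = 0.112). Whole-gene counts do not test the loss of a floxed exon, so the genotype is used as a label throughout.

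Treated libraries held 52930884 to 107515565 counts in controls and 47064061 to 57223340 in islets labelled bKO. Replicate 2 of the treated islets labelled bKO stood apart from the other 5 treated libraries and lay at the end of a first principal component that held 74.9% of their variance. Ins1 and Ins2 together took 8.15% of its counts, against 12.6% to 14.9% in the other 5. Its stellate cell markers lay at a median of 1.27 above the mean of the treated controls on a log2 scale and its beta cell markers at -1.24. Many list results are therefore also given without it, and results given only with it may depend on it. Beta cell markers were present in every treated library, with a summed level of 144608 to 177637 CPM in controls and 90079 to 162469 CPM in islets labelled bKO.

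With cytokines, 46 of 19800 genes differed between the genotypes at adjusted p under 0.05, which is 0.232% of the genes tested. Of these, 28 genes (0.141%) were higher in islets labelled bKO and 18 (0.0909%) were lower. By adjusted p the higher genes were led by Pomc, the precursor of melanocortins and beta-endorphin, and they hold other secreted peptides, the fibrinogen chain Fgg and the chemokine gene Cxcl11. The lower genes were led by Rec8, a cohesin subunit known from meiosis, and they hold the beta cell genes G6pc2 and Ucn3. The 3 control and the 3 labelled-bKO levels of all 46 genes did not overlap. Non-overlapping levels were common, however, and were found for 6.94% of all tested genes in the higher and 10.8% in the lower direction. The differences reached 2-fold in 19 of the 28 higher and in 6 of the 18 lower genes, and 13 of the 46 genes stayed under 5 CPM in the higher group. Unadjusted p was under 0.05 for 3530 genes, 17.8% of those tested. Over the same 19800 genes DESeq2 called 297 higher and 411 lower, and limma-voom 32 higher and 18 lower. These values over all tested genes are the background for the counts of the lists below, each for its own tool.

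The number of called genes depended strongly on single libraries and on the untreated libraries that share the estimate of spread. Without treated bKO replicate 1 it was 191 higher and 253 lower, without replicate 2 it was 42 and 27, and without any 1 of the other 10 libraries it was 2 to 11 higher and 2 to 5 lower. A fit of the 6 treated libraries alone called 0 genes by edgeR, with 1714 genes at unadjusted p under 0.05. Every one of the 46 kept its sign in each alternative in which it was tested, and Pomc, Rec8 and AW112010 stayed called in 22 of 23 alternatives. Without treated bKO replicate 2, 38 of the 46 stayed called. The others were Il33, Plcxd3, Proc, Arsi, Myo3b, Pgr, Gm15418 and Gm42997.

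**Figure D1:**
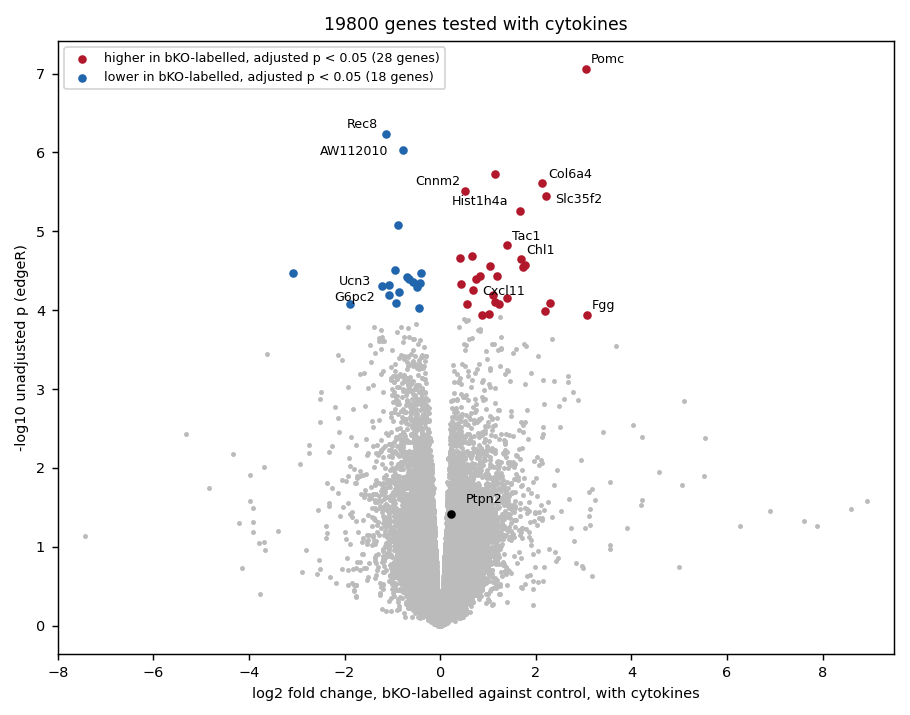
Each point is 1 of the 19800 tested genes, with the log2 fold change between treated islets labelled bKO and treated controls on the x axis and -log10 of the unadjusted edgeR p on the y axis. The 28 genes called higher are red and the 18 called lower are blue, Pomc lies highest at a log2 fold change of 3.04, and Ptpn2 (black) lies among the uncalled genes at 0.23.

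The precursor genes of 3 secreted peptides, Pomc, Tac1 and Npy, were among the higher genes. Pomc, whose cleaved products include ACTH, the melanocortins and beta-endorphin, stood at 3.35, 4.31 and 3.69 CPM in treated controls and at 24.9, 22.4 and 46.5 CPM in treated islets labelled bKO. All 3 libraries labelled bKO lay well above all controls, and the gene was 8.23-fold higher (log2 3.04, SE 0.26, adjusted p = 0.0017). Without cytokines it was higher as well, at a mean of 23.5 CPM in islets labelled bKO (SD 4.0, n = 3) and 4.33 CPM in controls (SD 0.25, n = 3), so its level was about the same with and without treatment in each genotype. Pomc lies at chr12:3954951-3960642 on the plus strand (GRCm38, GENCODE M21). The 250 bases before its RefSeq start (GRCm38.p6, chr12:3954695-3954944, plus strand) are printed because Pomc had the smallest p of all genes. The capitals mark the only match to the motifs searched, ACGTG on the opposite strand, a core that hypoxia-inducible factors bind, at position -58 from the start.
Pomc: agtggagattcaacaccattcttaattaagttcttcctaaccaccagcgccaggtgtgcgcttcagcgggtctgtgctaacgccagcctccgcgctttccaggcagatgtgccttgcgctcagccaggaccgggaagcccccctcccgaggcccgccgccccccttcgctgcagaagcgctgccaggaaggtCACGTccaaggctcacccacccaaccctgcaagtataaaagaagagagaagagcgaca

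Tac1, the precursor of substance P and neurokinin A, was at 12.2, 17.6 and 12.96 CPM in treated controls and at 36.9, 29.8 and 46.1 CPM in islets labelled bKO. It was 2.64-fold higher (log2 1.40, SE 0.20, adjusted p = 0.0297). Without cytokines it was close to absent in both genotypes, at means of 0.263 and 0.433 CPM, so nearly all of its RNA was found with treatment. Npy, which encodes neuropeptide Y, stood at 3.67, 3.34 and 3.23 CPM in controls and at 5.51, 7.03 and 8.67 CPM in islets labelled bKO, 2.07-fold higher (log2 1.05, SE 0.16, adjusted p = 0.0334). The labelled-bKO libraries were higher without cytokines too by value (log2 0.64, adjusted p = 0.284), a difference that did not pass. Ucn3, a peptide gene described with the beta cell genes, was lower.

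Among secreted plasma proteins of the acute phase, which the liver makes under STAT3, 2 of 48 listed genes were called higher and 0 lower by edgeR. DESeq2 called 8 higher and 1 lower, limma-voom 4 higher and 0 lower, and 17 had an unadjusted p under 0.05. Over all tested genes edgeR called 0.141% higher and 0.0909% lower, and 17.8% had an unadjusted p under 0.05. Of these 19800 genes DESeq2 called 297 higher and 411 lower, and limma-voom 32 and 18. The edgeR calls are Pomc, which the list also holds as a STAT3 target, and Fgg, the gamma chain of fibrinogen. Fgg was at 10.8, 25.1 and 14.4 CPM in treated controls and at 117, 85.0 and 222 CPM in islets labelled bKO, 8.37-fold higher (log2 3.06, SE 0.54, adjusted p = 0.0496). The lowest library labelled bKO was still above the highest control. The other chains had values of the same sign that missed the threshold. Fga, the alpha chain, stood at 21.96, 41.0 and 22.6 CPM against 138, 85.4 and 210.5 CPM (log2 2.34, adjusted p = 0.0651). Fgb, the beta chain, stood at 38.6, 76.9 and 45.8 CPM against 169.6, 147 and 348 CPM (log2 2.04, adjusted p = 0.0698). Serpina3n, a protease inhibitor of the acute phase, stood at 168, 216 and 209 CPM against 657, 332 and 712 CPM (log2 1.52, adjusted p = 0.0698). In all 4 of these genes replicate 2 was the lowest of the libraries labelled bKO, and without it 5 genes of the list were called higher, namely Pomc, Fgg, Fga, Fgb and Serpina3n.

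The whole acute-phase list leaned upward, with 40 of 48 genes at a positive log2 fold change and a median of 0.53, against a median of 0.01 over all tested genes. Its groups did not overlap in 13 genes in the higher and 1 in the lower direction, 27.1% and 2.08% of the list. Over all tested genes these shares were 6.94% and 10.8%. Without treated bKO replicate 2 39 of 48 were positive and the median was 0.28. Without cytokines, 6 genes of the list were called higher, and 3 of them had a larger genotype difference there: Fgg (log2 6.01), Fga (5.85) and Fgb (4.58). The difference between treatments did not pass for these genes (interaction adjusted p = 0.296, 0.246 and 0.251). The 3 genes lie beside each other on chromosome 3, and 40-base stretches before the starts of Fga and Fgb are printed because both hold a match to the STAT motif TTCNNNGAA, in capitals, at positions -234 and -162 (RefSeq, GRCm38.p6, chr3:83025903-83025942, plus strand, and chr3:83050002-83050041, minus strand). They were chosen after their values were seen, and edgeR did not call either gene with cytokines. Fgg, the called chain, is not among the called genes with a match to this motif, which 7.18% of all promoters hold.
Fga: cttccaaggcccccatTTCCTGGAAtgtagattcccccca
Fgb: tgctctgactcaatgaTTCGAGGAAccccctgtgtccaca

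Calls among the listed interferon targets differed between tools. AW112010 and Trim21, both called lower and described below, are outside this list. Of 60 listed genes, edgeR called 1 higher and 0 lower, limma-voom 1 higher and 1 lower, and DESeq2 1 higher and 6 lower. Over all 19800 tested genes edgeR called 28 (0.141%) higher and 18 (0.0909%) lower, limma-voom 32 and 18, and DESeq2 297 and 411. At unadjusted p under 0.05 there were 15 genes, 25 had a positive and 35 a negative log2 fold change, and the median was -0.09. Groups did not overlap in 3 genes in the higher and in 17 in the lower direction, 5% and 28.3% of the list. Over all tested genes these shares were 6.94% and 10.8%. Without treated bKO replicate 2, 49 of 60 were negative and the median was -0.16. The gene called by edgeR was Cxcl11, a chemokine that draws T cells through the receptor CXCR3, at 29.6, 26.8 and 31.8 CPM in controls and at 47.1, 41.1 and 53.9 CPM in islets labelled bKO (1.61-fold higher, log2 0.69, SE 0.11, adjusted p = 0.0355). GENCODE M21 annotates this gene as a polymorphic pseudogene, one that is intact in some strains only, and its exons overlap those of Gm2673. Its sister chemokines were not called: Cxcl9 was at 1772 to 2449 CPM in controls and at 2067 to 3093 CPM in islets labelled bKO (log2 0.31, adjusted p = 0.564), and Cxcl10 at 650.05 to 798 and 719 to 776 CPM (log2 0.03, adjusted p = 0.93).

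Several uncalled interferon genes with the lowest p in the list had lower values in islets labelled bKO. Irf9, the DNA-binding part of the complex that type I interferon activates, stood at 132, 143 and 133 CPM in controls and at 101, 80.0 and 92.9 CPM in islets labelled bKO (log2 -0.57, adjusted p = 0.0682). Its partner Stat2 had a log2 fold change of -0.71 (adjusted p = 0.109), and Ifit2, an antiviral RNA-binding protein, one of -0.62 (adjusted p = 0.0698). Cd274, the checkpoint ligand PD-L1 that restrains T cells, stood at 843, 857 and 897 CPM against 721, 566 and 688 CPM, with no overlap between groups (log2 -0.39, adjusted p = 0.0918).

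The feedback and relay genes of the JAK-STAT pathway split almost evenly by sign. Of 47 genes edgeR called 0 and DESeq2 3, 17 had an unadjusted p under 0.05, 25 were positive and 22 negative, and the median log2 fold change was 0.04. That median was -0.02 without treated bKO replicate 2. Groups did not overlap in 8 genes in the higher and in 9 in the lower direction, 17% and 19.1% of the list. Over all tested genes these shares were 6.94% and 10.8%, and 17.8% had an unadjusted p under 0.05. Socs1, the inhibitor that interferon induces against its own receptor, was at 79.8, 69.6 and 87.8 CPM in controls and at 98.4, 114 and 103 CPM in islets labelled bKO (log2 0.41, adjusted p = 0.172). Socs3, which does the same for receptors that signal through STAT3, was at 90.9 to 107 and 107.8 to 151 CPM (log2 0.41, adjusted p = 0.233). Targets of STAT5, the factor behind growth hormone and prolactin, had a median of -0.09 over 24 genes. Of these edgeR called 0 and DESeq2 6, and 13 had an unadjusted p under 0.05. Groups did not overlap in 5 of the 24 genes in the higher and in 7 in the lower direction, 20.8% and 29.2% of the list. These shares, too, stand beside 6.94% and 10.8% of all tested genes. Without treated bKO replicate 2 the median of the STAT5 list was -0.03.

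Other immune and antiviral genes outside these lists were called in both directions. Il33, an alarmin cytokine of the IL-1 family, was at 4.76, 4.41 and 3.49 CPM in controls and at 8.12, 9.99 and 9.99 CPM in islets labelled bKO (2.22-fold higher, log2 1.15, adjusted p = 0.0405). It was not called without treated bKO replicate 2 (log2 1.08, adjusted p = 0.0535). Fam111a, a protease that restricts some viruses, was 1.58-fold higher (log2 0.66, adjusted p = 0.0334), with 3 controls from 20.5 to 21.2 CPM and 3 libraries labelled bKO from 30.9 to 35.0 CPM.

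The antiviral and immune genes with the firmest lower values were AW112010 and Trim21. AW112010 is annotated as a long noncoding RNA of chromosome 19 (chr19:11047612-11055808, minus strand) and is known as a transcript that interferon and bacterial products induce. It was at 147, 131 and 129 CPM in treated controls and at 82.9, 80.1 and 74.4 CPM in islets labelled bKO. It was 1.72-fold lower (log2 -0.78, SE 0.082, adjusted p = 0.00613), and the group ranges were far apart. Without cytokines its means were 1.68 and 1.44 CPM, so nearly all of its RNA was found with treatment. A 40-base stretch before its RefSeq start is printed because it holds 1 of the 2 NF-kB matches among the called genes (GRCm38.p6, chr19:11050613-11050652, minus strand). The capitals mark GGAATTTCC, which begins at position -70. This stretch lies within the span that GENCODE M21 gives for the gene, so the RefSeq and GENCODE starts differ.
AW112010: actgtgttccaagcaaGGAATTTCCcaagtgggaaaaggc
Trim21, an intracellular antibody receptor and ubiquitin ligase, was at 50.6, 57.3 and 55.8 CPM in controls and at 38.0, 40.1 and 39.7 CPM in islets labelled bKO (1.39-fold lower, log2 -0.47, adjusted p = 0.0334). Both genes were thus high with cytokines in each genotype and lower in the islets labelled bKO.

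Of 44 NF-kB targets and chemokines edgeR and DESeq2 each called 0, and 8 had an unadjusted p under 0.05. The median was 0.03, with 23 positive and 21 negative values, and it was -0.002 without treated bKO replicate 2. Nos2, the inducible nitric oxide synthase that harms rodent beta cells, was at 1191, 1114 and 1144 CPM in controls and at 1351, 952 and 1261 CPM in islets labelled bKO (log2 0.05, adjusted p = 0.923). Sod2, the mitochondrial superoxide dismutase, was at 624 to 699.9 CPM and 699 to 894 CPM (log2 0.29, adjusted p = 0.157). Antigen presentation by class I had 0 of 24 genes called by edgeR or DESeq2 and a median of -0.04, with Psmb9, a subunit of the immunoproteasome, at -0.28 (adjusted p = 0.168) and Tap2, the peptide transporter, at -0.13 (adjusted p = 0.336). Class II had 0 of 14 called by either tool and a median of 0.09, with its master regulator Ciita at 0.44 (adjusted p = 0.366). Without treated bKO replicate 2 the class II median was -0.03 and Ciita was at 0.08. At unadjusted p under 0.05 there were 1 class I and 0 class II genes.

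**Figure D2:**
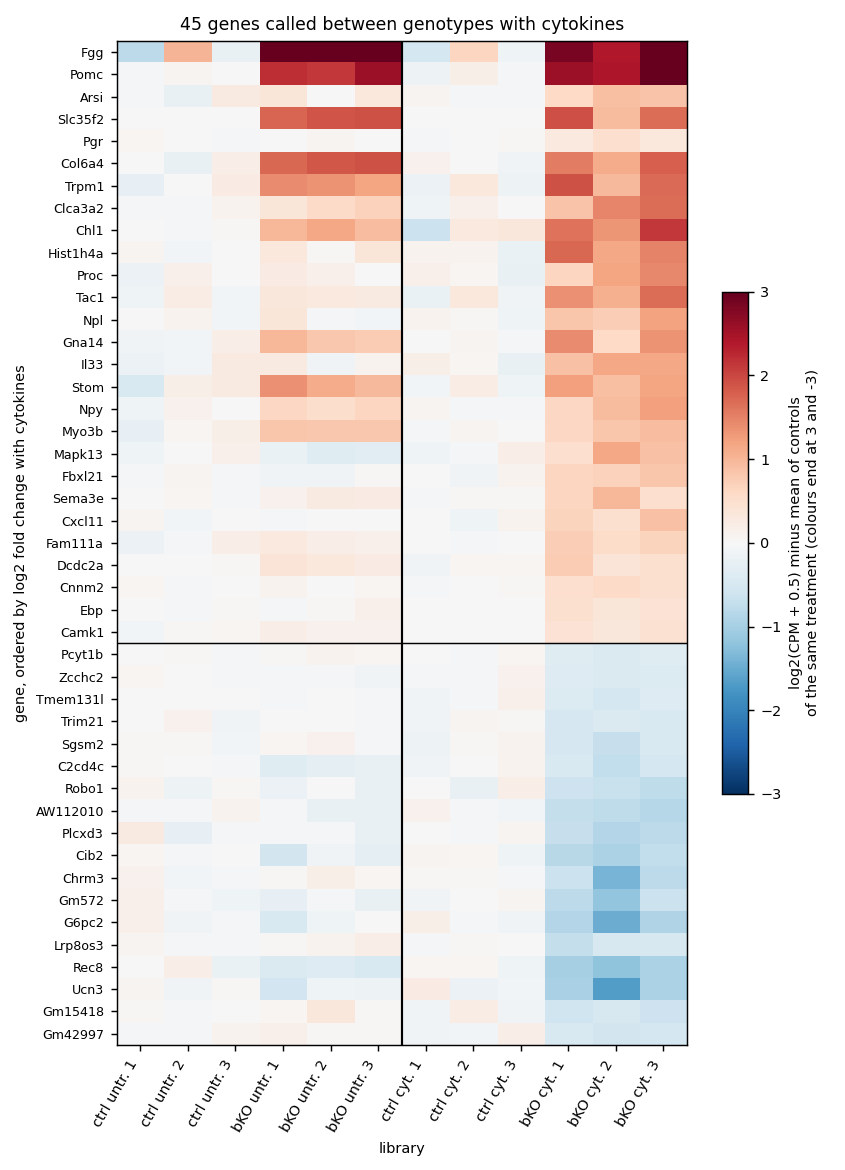
Colours show the log2(CPM + 0.5) of 45 of the 46 called genes (y axis, ordered by log2 fold change) in each of the 12 libraries (x axis) minus the mean of the 3 controls of the same treatment. In the treated libraries labelled bKO the 27 genes above the line are red and the 18 below it are blue in all 3, while without cytokines strong colours are seen for few genes, led by Fgg, Pomc, Col6a4 and Slc35f2. The genes were chosen by their treated difference, which by itself favours stronger treated colours.

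Beta cell identity genes, the transcription factors and secretory genes that define a mature beta cell, had 2 of 44 members called lower and 0 higher by edgeR. DESeq2 called 16 of the 44 lower and limma-voom 2, with 0 higher by either. Over all 19800 tested genes DESeq2 called 411 lower and limma-voom 18, and edgeR 18 (0.0909%). G6pc2, the islet glucose-6-phosphatase that opposes glucokinase, was at 257, 219 and 213 CPM in treated controls and at 124, 80.8 and 121 CPM in islets labelled bKO. It was 2.11-fold lower (log2 -1.08, SE 0.17, adjusted p = 0.0334). Ucn3, urocortin 3, a peptide of mature beta cells that acts on delta cells, was at 24.8, 18.6 and 19.9 CPM in controls and at 10.5, 6.23 and 10.6 CPM in islets labelled bKO. It was 2.33-fold lower (log2 -1.22, SE 0.19, adjusted p = 0.0334). In both genes replicate 2 was the lowest library, but the other 2 libraries labelled bKO were also below every control, and both stayed called without replicate 2 (log2 -0.92 and -1.02). Without cytokines the means were far higher in both genotypes, 1029 and 909.7 CPM for G6pc2 and 221 and 183 CPM for Ucn3. In bulk islet RNA, fewer beta cells and less RNA per beta cell cannot be told apart.

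The 250 bases before the RefSeq starts of G6pc2 (chr2:69210823-69211072, plus strand) and Ucn3 (chr13:3945350-3945599, minus strand) are printed because these 2 genes are the called members of the beta cell lists (GRCm38.p6). Neither window holds a match to the motifs searched, so no letters are in capitals.
G6pc2: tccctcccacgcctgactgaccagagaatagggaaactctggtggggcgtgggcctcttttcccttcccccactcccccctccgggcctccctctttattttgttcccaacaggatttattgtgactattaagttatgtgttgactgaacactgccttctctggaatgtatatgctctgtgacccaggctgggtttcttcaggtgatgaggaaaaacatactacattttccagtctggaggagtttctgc
Ucn3: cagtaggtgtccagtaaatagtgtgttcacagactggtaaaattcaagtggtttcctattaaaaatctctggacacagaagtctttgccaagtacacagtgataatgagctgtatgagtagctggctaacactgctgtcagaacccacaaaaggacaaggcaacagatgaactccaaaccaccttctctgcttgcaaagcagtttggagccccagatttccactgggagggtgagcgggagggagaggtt

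Most other genes of the beta cell identity list had negative values that did not pass in the edgeR test. Of 44 genes, 40 were negative, 28 had an unadjusted p under 0.05 and the median log2 fold change was -0.50. Groups did not overlap in 25 genes in the lower direction, 56.8% of the list, and in 1 in the higher. Over all tested genes the shares were 10.8% in the lower and 6.94% in the higher direction. Without treated bKO replicate 2, 39 of 44 were negative, the median was -0.33 and 3 genes were called lower, the third being Gjd2, the gap junction protein that couples beta cells. With all libraries Gjd2 was at 32.3, 31.0 and 35.7 CPM in controls and at 17.97, 8.28 and 14.6 CPM in islets labelled bKO (log2 -1.28, adjusted p = 0.0651). Among the transcription factors, Nkx6-1 had a log2 fold change of -0.78 (adjusted p = 0.139) and Pdx1 one of -0.37 (adjusted p = 0.141). Npas4, an activity-dependent factor, stood at 6.85 to 16.2 CPM in controls and at 3.49 to 5.11 CPM in islets labelled bKO (log2 -1.45, adjusted p = 0.0748).

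The hormone genes themselves were not called. Ins1 was at 39272 to 50409 CPM in treated controls and at 26418 to 48792 CPM in islets labelled bKO (log2 -0.18, adjusted p = 0.649), and Ins2 had a log2 fold change of -0.30 (adjusted p = 0.424). Without replicate 2 the value of Ins1 was 0.04, of the opposite sign. Iapp, the amyloid peptide released with insulin, was at -0.50 (adjusted p = 0.248). Of the other endocrine hormones, Gcg, glucagon, was at -0.41 (adjusted p = 0.211), Sst, somatostatin, at -0.30 (adjusted p = 0.418) and Ppy, pancreatic polypeptide, at -0.67 (adjusted p = 0.17). Reads of Ins1 and Ins2, which are close copies, may be split between them.

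The secretory machinery had 0 of 43 genes called by edgeR and 2 by DESeq2, 34 negative values, a median of -0.23 and 15 genes at unadjusted p under 0.05. Groups did not overlap in 10 genes in the lower direction, 23.3% of the list, and in 0 in the higher. Over all tested genes these shares were 10.8% and 6.94%, and 17.8% had an unadjusted p under 0.05. Without treated bKO replicate 2 the median was -0.12. Sytl4, the granule protein granuphilin, was at -0.68 (adjusted p = 0.0837), Rab3a, a GTPase of docked granules, at -0.53 (adjusted p = 0.0875), and Rab37, another granule GTPase, at -0.60 (adjusted p = 0.109). Genes normally kept silent in mature beta cells had 0 of 26 called by edgeR and 2 by DESeq2, 9 at unadjusted p under 0.05 and a median of 0.42, which was 0.10 without treated bKO replicate 2.

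Cell adhesion and guidance genes, by which neurons and endocrine cells find and hold each other, had 2 of 46 members called higher and 1 called lower by edgeR (4 and 1 by DESeq2, 3 and 1 by limma-voom), with a median log2 fold change of 0.27 that was -0.06 without treated bKO replicate 2. Chl1, an adhesion molecule of the L1 family, was at 9.39, 18.4 and 18.9 CPM in treated controls and at 46.96, 38.1 and 65.8 CPM in islets labelled bKO (3.23-fold higher, log2 1.69, SE 0.25, adjusted p = 0.0334). Sema3e, a secreted guidance cue, was at 16.5 to 17.8 CPM in controls and at 24.6 to 35.1 CPM in islets labelled bKO (1.68-fold higher, log2 0.75). Robo1, a receptor for Slit proteins, was at 51.8, 44.0 and 58.5 CPM in controls and at 33.2, 31.8 and 29.9 CPM in islets labelled bKO (1.62-fold lower, log2 -0.70). The adjusted p of both was 0.0334. Nrcam, an adhesion molecule related to Chl1 that was called higher without cytokines, was at 0.43 with them (adjusted p = 0.128).

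**Figure D3:**
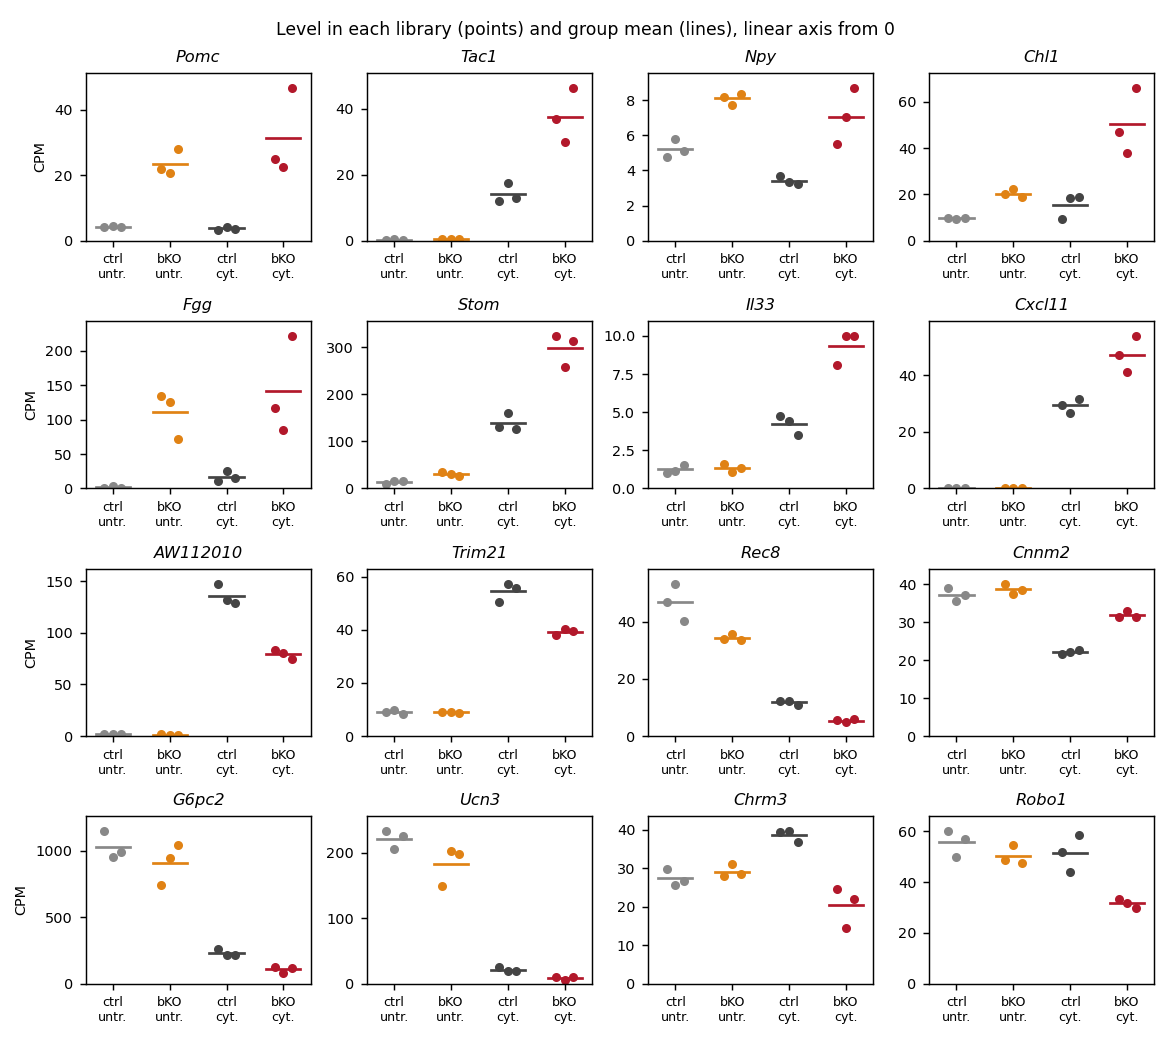
Each panel gives the level in CPM (y axis, linear from 0) of 1 called gene in the 12 libraries (points) of the 4 groups on the x axis, with the group mean as a line. In all 16 panels the 3 treated libraries labelled bKO (red) do not overlap the 3 treated controls (black), while Pomc, Npy, Chl1, Fgg and Stom also have higher untreated points in the islets labelled bKO (orange).

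Receptors and signalling enzymes were called in both directions. Chrm3, the muscarinic receptor through which acetylcholine raises insulin release, was at 39.3, 39.6 and 36.7 CPM in treated controls and at 24.6, 14.4 and 22.1 CPM in islets labelled bKO (1.89-fold lower, log2 -0.92, SE 0.15, adjusted p = 0.0405). Gna14, an alpha subunit of the Gq class of G proteins, was at 19.2 to 21.1 CPM in controls and at 30.7 to 54.6 CPM in islets labelled bKO (2.28-fold higher, log2 1.19). The kinases Camk1, which calcium and calmodulin activate, and Mapk13, a p38 kinase of stress signalling, were 1.34-fold and 1.84-fold higher (log2 0.42 and 0.88). Plcxd3, a phospholipase of the PLC class, was 1.81-fold lower (log2 -0.86), and so was Sgsm2, a regulator of small GTPases, at 1.48-fold (log2 -0.57). Without cytokines Chrm3 had means of 27.4 and 29.1 CPM, between its treated means of 38.5 CPM in controls and 20.4 CPM in islets labelled bKO.

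The called genes Stom, Cnnm2 and Trpm1 encode membrane proteins. Stom, stomatin, a membrane protein that binds ion channels, was at 130.3, 159.8 and 125 CPM in treated controls and at 323, 257 and 314 CPM in islets labelled bKO (2.15-fold higher, log2 1.11, SE 0.18, adjusted p = 0.0373). Its untreated difference was of the same size by value (log2 1.15, adjusted p = 0.0523). Cnnm2, a regulator of magnesium transport, was at 21.7, 22.3 and 22.6 CPM in controls and at 31.5, 33.1 and 31.3 CPM in islets labelled bKO (1.44-fold higher, log2 0.53, SE 0.063, adjusted p = 0.00998). Its spread within each group was small beside the difference. Without cytokines Cnnm2 was at means of 37.2 and 38.7 CPM, so its treated level was below the untreated one by value in both genotypes. The interaction did not pass (adjusted p = 0.213). Trpm1, a cation channel, was 3.43-fold higher (log2 1.78, adjusted p = 0.0334), at 1.58 to 2.42 CPM in controls and 4.07 to 8.26 CPM in islets labelled bKO.

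Lipid and metabolic enzymes gave few calls. Ebp, a sterol isomerase of cholesterol synthesis, was the only called gene of 32 in the cholesterol list, whose median was 0.07 (1.35-fold higher, log2 0.43, SE 0.068, adjusted p = 0.0334), at 23.5, 23.6 and 23.6 CPM in controls and 32.8, 30.4 and 32.1 CPM in islets labelled bKO. Without treated bKO replicate 2 the median of the cholesterol list was -0.09 and 24 of its 32 genes were negative. Pcyt1b, an enzyme of phosphatidylcholine synthesis, was 1.32-fold lower (log2 -0.40, adjusted p = 0.0334). Npl, an enzyme that breaks down sialic acid, was 2.33-fold higher (log2 1.22, adjusted p = 0.0405) at 0.943 to 1.19 CPM in controls and 2.14 to 3.17 CPM in islets labelled bKO.

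The study's title names metabolic flux, and the lists of central metabolism held no called gene other than Ebp. Glycolysis and hypoxia genes had 0 of 43 called by edgeR, 3 by DESeq2 and 10 at unadjusted p under 0.05, with 36 positive values and a median of 0.22 that was 0.08 without treated bKO replicate 2. Hif1a, the oxygen-sensitive factor that raises glycolysis genes, was at 259, 258 and 249 CPM in controls and at 299, 351 and 349 CPM in islets labelled bKO (log2 0.38, adjusted p = 0.0826). The 46 genes of the TCA cycle and pyruvate entry had a median of -0.02, which scaling by library totals alone turned to 0.01, with 1 DESeq2 call, 7 genes at unadjusted p under 0.05 and Idh2, the mitochondrial isocitrate dehydrogenase, at -0.56 (adjusted p = 0.0928). The 77 nuclear genes of oxidative phosphorylation had 57 positive values, a median of 0.04, 2 DESeq2 calls and 5 at unadjusted p under 0.05. Ndufs4, a subunit of complex I, had the lowest p among them, with a mean of 30.6 CPM in controls (SD 1.9, n = 3) and 37.6 CPM in islets labelled bKO (SD 0.99, n = 3) (log2 0.30, adjusted p = 0.0829). The 13 genes of the mitochondrial genome had a median of 0.01, which DESeq2 size factors turned to -0.01, and 0 of them had an unadjusted p under 0.05. Without treated bKO replicate 2 the medians were -0.01 for the TCA list, 0.06 for nuclear oxidative phosphorylation and -0.05 for the mitochondrial genome.

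Other metabolic and stress lists had medians near 0, which can also arise from differences in both directions. Over all tested genes 17.8% had an unadjusted p under 0.05. Fatty acid genes were at 0.08 (55 genes, 16 at unadjusted p under 0.05), pentose phosphate and one-carbon genes at 0.12 (38 genes, 8), mitochondrial biogenesis genes at -0.04 (32 genes, 4), antioxidant genes at 0.16 (46 genes, 7), apoptosis genes at 0.14 (51 genes, 12), unfolded protein response genes at -0.05 (35 genes, 2) and immediate early genes at 0.09 (34 genes, 13), with 0 called by edgeR in each and 0 to 3 by DESeq2. Without treated bKO replicate 2 the medians of these lists were, in the same order, -0.02, 0.06, -0.05, 0.04, -0.003, 0.02 and 0.05. Mlxipl, the glucose-sensing factor ChREBP, had the lowest p of the fatty acid list (log2 -0.89, adjusted p = 0.113). Tnfsf10, the death ligand TRAIL, was at 91.4, 77.4 and 99.5 CPM in controls and at 53.5, 71.6 and 50.2 CPM in islets labelled bKO (log2 -0.61, adjusted p = 0.0835). It was called lower without treated bKO replicate 2 (log2 -0.80, adjusted p = 0.00867), and its adjusted p missed the threshold with all libraries. Xbp1, a factor of the unfolded protein response, was at 0.27 (adjusted p = 0.17).

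Nuclear and cytoskeletal genes completed the calls. Rec8 was at 12.3, 12.2 and 10.8 CPM in treated controls and at 5.62, 4.80 and 5.79 CPM in islets labelled bKO (2.18-fold lower, log2 -1.12, SE 0.11, adjusted p = 0.00573). Its untreated means were 46.7 and 34.3 CPM, so its level with treatment was below that without it in both genotypes. Hist1h4a, a histone H4 gene with near-identical copies whose reads may be split between them, was 3.20-fold higher (log2 1.68, adjusted p = 0.0136). Cib2, a calcium-binding protein whose exons overlap those of Sh2d7, was 1.84-fold lower (log2 -0.88, adjusted p = 0.0181). Dcdc2a, a doublecortin-domain protein of microtubules, was 1.48-fold higher (log2 0.57). Zcchc2 and Tmem131l, which have no role given here, were 1.33-fold and 1.36-fold lower.

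A further 13 called genes were under 5 CPM in the higher group or, for Gm572, are predicted only. Higher were Col6a4, a collagen VI chain (log2 2.14), Slc35f2, a solute carrier (2.21), Clca3a2, of a family of close copies (1.72), Proc, the anticoagulant protein C (1.41), Arsi, an arylsulfatase (2.30), Pgr, the progesterone receptor (2.20), Myo3b, a myosin (1.02), and Fbxl21, an F-box protein (0.84). Lower were C2cd4c (-0.66), Gm572 (-0.95) and the noncoding genes Gm42997 (-3.08), Lrp8os3 (-1.08) and Gm15418 (-1.88). Of the 46 called genes, 31 meet the rule for naming genes, and the other 15 are named because they were called. Pgr, at 0.0332 to 0.0602 CPM in controls and 0.165 to 0.273 CPM in islets labelled bKO, stayed called in 4 of 20 alternatives. Exons of 9 of the 46 genes overlap those of another gene in GENCODE M21, among them Col6a4, Trpm1, Fgg and Camk1, and no source used here states the strand used in counting.

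Cell cycle and matrix genes were highest by value in treated bKO replicate 2. Of 47 cell cycle genes 45 were positive with a median of 0.50, and without that library 17 were positive and the median was -0.03. Of 49 genes of extracellular matrix and remodelling all 49 were positive with a median of 0.52, and without it 30 were positive and the median was 0.05. For each list edgeR called 0 genes and DESeq2 1, with 13 and 8 at unadjusted p under 0.05. Mcm7, a subunit of the replication helicase, was at 18.3, 16.2 and 17.9 CPM in controls and at 19.5, 31.2 and 21.3 CPM in islets labelled bKO (log2 0.46, adjusted p = 0.165). Mmp3, a matrix metalloproteinase, was at 209.6, 103 and 153 CPM in controls and at 183, 489 and 284 CPM in islets labelled bKO (log2 1.04, adjusted p = 0.164). In both genes the highest level was that of replicate 2.

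Markers of other cell types were examined because whole islets hold more than beta cells. Of 107 tested markers of 10 non-endocrine cell types, edgeR called 0 and DESeq2 4, and 18 had an unadjusted p under 0.05. All 14 stellate cell and pericyte markers were positive, with a median log2 fold change of 0.60 and summed levels of 1637 to 4542 CPM in controls and 3248 to 8503 CPM in islets labelled bKO, and without replicate 2 they were 7 positive and 7 negative. Pdgfra, a receptor of these cells, was at 76.1, 23.8 and 61.2 CPM in controls and at 56.3, 192 and 53.0 CPM in islets labelled bKO. Ductal markers were positive in 13 of 15 genes (median 0.50, summed levels of 6101 to 7769 and 6833 to 11791 CPM), with the keratin Krt19 at 46.5, 34.7 and 54.4 CPM in controls and 52.4, 144 and 87.7 CPM in islets labelled bKO. Acinar markers were positive in 21 of 22 (median 0.32, summed levels of 1282 to 2139.96 and 989 to 4067 CPM), and here replicate 2 was the lowest and replicate 3 the highest library. Endothelial markers were positive in 15 of 15 (median 0.22, 263 to 373 and 327 to 453 CPM) and macrophage markers in 16 of 18 (median 0.15, 636 to 765 and 672 to 884 CPM). Without replicate 2, acinar markers were still positive in 21 of 22 with a median of 0.72, endothelial markers in 14 of 15 (0.16), ductal markers in 11 of 15 (0.20) and macrophage markers in 12 of 18 (0.05). What part these cells have in the called genes was not tested.

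Alpha and delta cell markers were mostly negative by value. Alpha cell markers were negative in 8 of 12 (median -0.02, summed levels of 8665 to 11389 CPM in controls and 6629 to 7887 CPM in islets labelled bKO), delta cell markers in 6 of 8 (median -0.24, 493 to 836 and 457 to 668 CPM) and PP cell markers in 2 of 5 (median 0.08, 1266 to 1853 and 853 to 1269.6 CPM). Without replicate 2 the medians of the 3 lists were -0.11, -0.14 and -0.05. For these 3 lists edgeR called 0 genes, DESeq2 called 1 alpha cell marker, and 3, 3 and 2 had an unadjusted p under 0.05. The beta cell markers, which share G6pc2 and Ucn3 with the identity list, were negative in 9 of 9 (median -0.68), and in 8 of 9 without replicate 2 (median -0.41).

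Few blood cell markers were tested. Only 4 of 10 T cell, 4 of 6 B cell, 4 of 10 neutrophil and 2 of 6 red blood cell markers passed the filter on low counts, with medians of 0.60, -0.10, 0.71 and -0.70. The B cell markers summed to 257 CPM in treated bKO replicate 2 and to 1.70 to 30.7 CPM in the other 5 treated libraries. Nearly all of this was Ighm, the heavy chain of IgM, at 254.9 CPM in that library and 28.2 CPM in control replicate 1 (log2 3.17, adjusted p = 0.501). In the other 2 treated libraries labelled bKO it was at 0.0235 and 0.0671 CPM, so the sign of its difference rests on replicate 2. The neutrophil genes Cxcr2 and Retnlg and the red blood cell gene Hbb-bt were at 0 in all 6 treated libraries. S100a9, a calcium-binding alarmin of neutrophils that other cells can also make under inflammation, was at 20.3, 25.3 and 23.3 CPM in controls and at 34.3, 33.4 and 38.8 CPM in islets labelled bKO (log2 0.63, adjusted p = 0.157). Schwann cell markers were positive in 4 of 9, with a median of -0.02 that was above 0 when scaled by library totals.

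**Figure D4:**
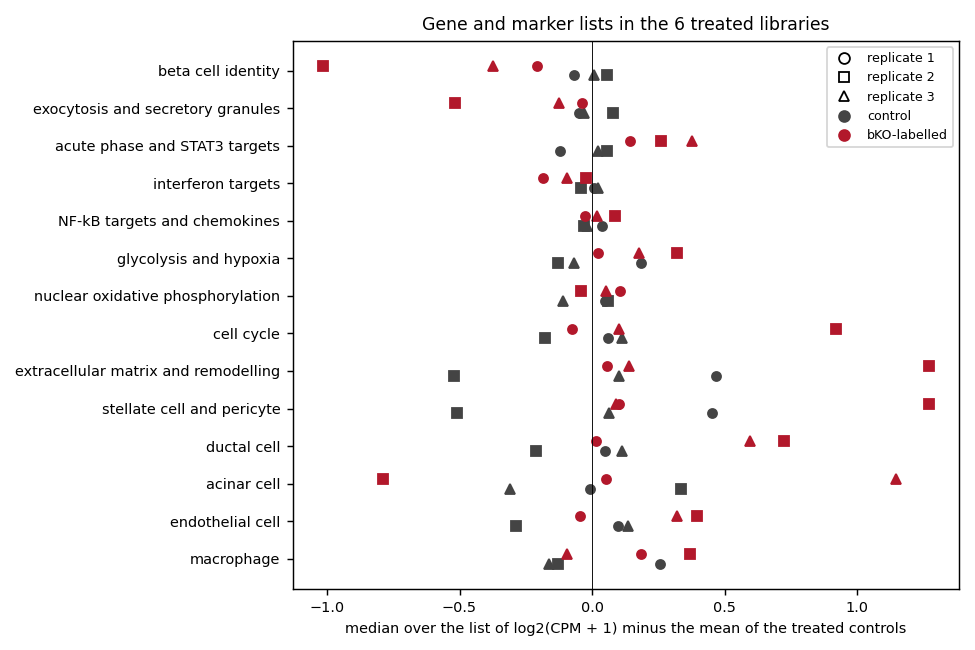
The x axis gives, for each gene or marker list (y axis), the median over its genes of log2(CPM + 1) in a treated library minus the mean of the 3 treated controls, with control libraries in grey, those labelled bKO in red and a symbol for each replicate number. Replicate 2 of the islets labelled bKO (red square) lies at 1.27 for stellate cell markers and for extracellular matrix and at -1.01 for beta cell identity, apart from the other 5 libraries.

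Without cytokines, 15 of 19800 genes (0.0758%) were called between the genotypes, all of them higher in islets labelled bKO. The 4 genes called in both treatments were Pomc, Fgg, Slc35f2 and Col6a4. Slc35f2 was at 0.582 to 0.609 CPM in treated controls and at 1.599 to 3.69 CPM in treated islets labelled bKO, and at log2 2.21 with and 3.03 without cytokines. Col6a4, of the same low range, was at log2 2.14 and 2.49. Of the 15 genes, 14 had a positive log2 fold change with cytokines too, the exception being Serpina3i, an inhibitor of the same family as Serpina3n (log2 -0.05 with and 2.03 without).

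Of the 46 genes called with cytokines, 36 had the same sign without them, 24 of 28 higher and 12 of 18 lower genes, beside 50.4% of all tested genes. The treated and untreated libraries of a genotype may come from the same mice. The difference was larger in size with cytokines than without for 41 of the 46, but the genes were chosen by their difference with cytokines. That choice favours a larger treated value, so the count does not show that cytokines widen the difference. Mapk13, Fbxl21 and Cxcl11 were among the 4 genes that were higher with cytokines and had negative values without them (log2 -0.31, -0.06 and -0.17, SE 0.15, 0.13 and 0.32). For Fbxl21 and Cxcl11 the untreated value was smaller than its SE, so its sign is not settled. Untreated Cxcl11 was close to absent, at means of 0.0959 CPM in controls and 0.0856 CPM in islets labelled bKO. Whether a genotype difference itself changed with treatment was tested by the interaction, and edgeR called 0 of 19800 genes (0%), with 2162 at unadjusted p under 0.05, while limma-voom called 0 and DESeq2 186. For the 46 genes the interaction adjusted p ran from 0.213 to 0.968, so none of the differences was shown to be particular to treated islets.

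**Figure D5:**
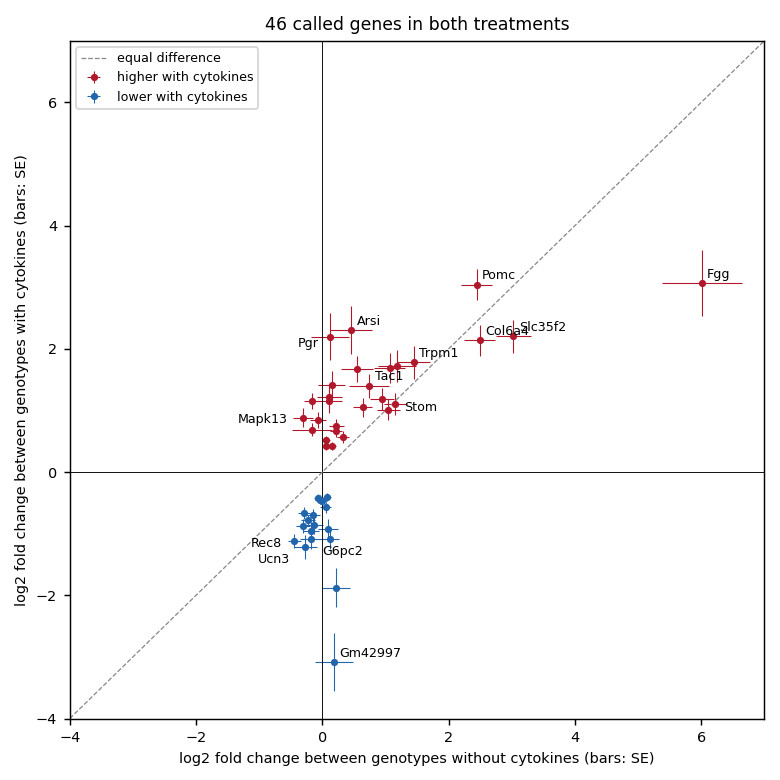
Points are the 46 called genes, with the log2 fold change between genotypes without cytokines on the x axis and with cytokines on the y axis, each with its SE. The 18 lower genes (blue) lie between -0.44 and 0.22 on the x axis, Pomc lies above the dashed line of equal differences at 2.44 without and 3.04 with cytokines, and Fgg lies below it at 6.01 and 3.06.

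The promoters of the called genes were searched for 5 short motifs in the 250 bases before the RefSeq start, on both strands. An entry existed for 39 of the 46 genes and for 27025 genes in all. The STAT motif TTCNNNGAA was found in 3 of 39 (Fam111a, Ebp and Dcdc2a), against 7.18% of all promoters. The interferon response core GAAANNGAA was found in 7 of 39, among them Col6a4, Clca3a2, Chl1 and Ebp, against 7.16%. The NF-kB sequences GGACTTTCC or GGAATTTCC were found in 2 of 39 (AW112010 and Clca3a2), against 0.57%. The E-box CACGTG was found in 3 of 39 (Tac1, Npl and Tmem131l), against 6.05%, and ACGTG, which lies within it, in 7 of 39, against 16.6%. A match describes the letters of the window and does not show that a factor binds there.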

How the data were processed

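The authors deposited raw counts per gene for 55536 genes in 12 libraries. Per the labels' protocols, total RNA was extracted with the RNeasy Micro Kit, had RIN values over 8.0 and was sequenced on an Illumina NovaSeq. Per the submitters' processing notes, the tools were STAR 2.5.2a, featureCounts 1.6.2, cutadapt 1.16, DESeq2 1.30.0 and FastQC 0.11.7, and the build was GRCm38. The sources used here give neither the annotation release nor the strand setting. The filtered copy of the table and the authors' size factors were not used.

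Groups and replicate numbers come from the sample titles. Counts were filtered with filterByExpr over the 4 groups and scaled by TMM. The test was that of edgeR 4.0.16 under R 4.3.3 (glmQLFit and glmQLFTest, 1 coefficient per group, 12 libraries), with Benjamini-Hochberg adjustment over all 19800 tested genes and a threshold of 0.05. SE is the log2 fold change divided by the square root of F. Depth was 47064061 to 107515565 counts per library. Pairs of libraries within a group had a chi-square per degree of freedom of 14.96 or more (genes of 20 counts and over), so none was counted as a copy. The test was tried on simulated data before use.

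Named genes are Ptpn2, up to 15 per direction by size and 10 by adjusted p among called genes whose groups do not overlap and whose higher group reaches 5 CPM, leaving out predicted genes and pseudogenes, up to 4 per list with the smallest p, and a fixed set of hormone, interferon and acute-phase genes. A few genes are not reported here. The genes compared and the gene and marker lists were chosen with earlier results of these data known. Gene positions and exon overlaps are from GENCODE M21, which matched all 19800 tested genes by ID, and sequences are from RefSeq on GRCm38.p6. Alternatives were DESeq2 1.42.0, limma 3.58.1 (voom), other scalings, filters and dispersions, a fit of the compared groups only, a replicate block, a stricter threshold and leaving out each library. With a library left out, its group's other 2 were assumed to vary like the other groups.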

Additional observations from a re-analysis of the deposited data

How the results depend on the processing

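Higher and lower genes with cytokines numbered 28 and 18, genes called without cytokines 15 and interaction calls 0. Other scalings, a filter at 1 CPM in 3 libraries, limma-voom and robust dispersions kept each count within 1.5 times. With no filter the counts were 63 higher, 127 lower, 32 and 1, and with DESeq2 297, 411, 128 and 186. At adjusted p under 0.01 they were 5 higher and 2 lower. With only the groups compared they were 0 and 0 with cytokines and 121 without, and the interaction has no such fit. Leaving out 1 library gave 2 to 191 higher, 2 to 253 lower, 12 to 59 without cytokines (59 without treated bKO replicate 2) and 0 to 3 for the interaction. The causes were not tested.

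The replicate block with the titles' numbers as a term left 5 higher and 2 lower genes. Same-numbered treated libraries of the 2 genotypes correlated at -0.24, -0.49 and 0.02 in their deviations from the group means. Untreated and treated libraries of the same number correlated at -0.03, 0.086 and 0.096 in islets labelled bKO. In controls these values were -0.10, 0.051 and -0.028. Not every library correlated best with its own number. With 3 libraries per group, such correlations cannot decide whether libraries share mice. A random replicate block of genotype and number gave 32 higher and 18 lower with an estimated correlation of -0.0083.

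Of the 46 called genes, DESeq2 kept 44 and limma-voom 35, and no gene called with or without a setting changed sign. Sign changes were 15, in 12 of 197 named genes, none called under either setting. Libraries held 47064061 to 107515565 counts, and 13 of the 46 genes were under 5 CPM in the higher group. What depth limits was not tested.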

Other observations

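The called genes were spread over the chromosomes. Chromosome 19 held 5 of the 46 (AW112010, Fam111a, Gna14, Il33 and Cnnm2), 10.9% of them beside 3.31% of the tested genes, and 1 of the 5 was lower. Chromosome 13 also held 5 (Ucn3, Chrm3, Hist1h4a, Dcdc2a and Fbxl21), beside 3.89% of the tested genes. Within 5 Mb of Ptpn2, 58 genes were tested and 0 were called by edgeR. Proc and Arsi, both on chromosome 18 like Ptpn2, lie outside this window.

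Ins1 reads numbered 41.6 to 45.1 per 100 Ins2 reads in the 3 treated controls, against 45.3 to 48.8 in the 3 treated libraries labelled bKO. Without cytokines the ratios were 50.4 to 56.6 in controls and 57.5 to 61.4 in islets labelled bKO, so the groups did not overlap in either treatment. The 2 genes are close copies, and no source used here states how shared reads were assigned.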
